A study of Mus musculus with 7899 samples.

Results

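The genes described here are 45 genes of the cell division cycle, 15 that copy DNA and 30 that act in mitosis, out of 21767 genes in the fullest count tables. They were chosen by gene symbol alone, from fixed lists of names, and were followed in single pancreatic β cells of mice through pregnancy, per library and per cell. The 15 replication genes are Mcm2, Mcm3, Mcm4, Mcm5, Mcm6, Mcm7, Pcna, Rrm1, Rrm2, Tyms, Gins2, Cdc6, Cdt1, Uhrf1 and E2f1. The 30 mitosis genes are Mki67, Top2a, Cdk1, Ccna2, Ccnb1, Ccnb2, Aurka, Aurkb, Bub1, Bub1b, Birc5, Plk1, Cenpa, Cenpe, Cenpf, Kif11, Kif20a, Kif23, Tpx2, Ube2c, Cdc20, Nusap1, Prc1, Racgap1, Anln, Ect2, Nuf2, Ndc80, Hmmr and Foxm1. All 45 were found in every table except the Stat3 table, which holds 12792 genes and 44 of the members, without Cenpe.

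A cell that divides first loads the MCM helicase onto its origins of replication in G1, then copies its DNA in S phase and separates the copies in mitosis. Genes of DNA replication are switched on by E2F factors around the entry into S phase, while many genes of mitosis are held down in resting cells by the DREAM complex through CHR promoter elements and come on in G2. Adult β cells rarely divide, and in rodents their replication is known to increase during pregnancy under prolactin and placental lactogens.

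RNA was read by Smart-seq3xpress, a plate method that sequences along whole transcripts, in 7897 sorted β cells of female C57BL/6J mice. Islets were freed with collagenase P, dissociated with trypsin and sorted cell by cell into plates. Neither the sort markers nor the drivers of the knockouts are named in the labels. The pregnancy course holds 16 groups: G0, which is gestation day 0, 9 later days of gestation from G3.5 to G18.5 (early days G3.5, G5.5 and G6.5, middle days G8.5, G10.5 and G12.5, late days G14.5, G16.5 and G18.5), and days 2, 7 and 14 after delivery as P2, P7 and P14, each NL or L, read here as not lactating and lactating because the labels do not spell them out. The knockout tables hold KO and WT mice of Acss2, the enzyme that makes acetyl-CoA from acetate, and of Stat3, a transcription factor of cytokine receptors, at G0, G14.5 and G18.5, and KO and WT mice of p300, a histone acetyltransferase, at G0 and G14.5. Mice on high-fat diet are in a further table, with G0, G14.5 and P7NL on that diet (HFD), Acss2 KO and WT mice on it at G0 and G14.5, and Acss2 WT mice on standard diet (SD) at G14.5. In culture, mouse islets were kept with human normal serum (NS) or human maternal serum (MS), and with 5 µM A485, an inhibitor of the acetyltransferases p300 and CBP, or 20 µM nifuroxazide (Nif), an inhibitor of STAT3 signalling, or with the vehicle alone (Ctrl). Summing the cells of each replicate gave 100 libraries of 48 groups. G14.5, G18.5, P14L and HFD_G14.5 have 3 replicates and every other group has 2.

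Promoters are shown for some members of each list. Among them Mcm2, with CHR letters, and Cdk1, with E2F letters, are exceptions in their lists. RefSeq promoters of 300 bases (250 before to 50 after the annotated start, GRCm38.p6) were matched to 38 of the 45 members by symbol. The E2F letters TTTCGCGC or TTTGGCGC, on either strand, were found in 6 of 13 replication promoters (46.2%) and in 1 of 25 mitosis promoters (4.0%), against 0.929% of all 27025 promoters. The 6 were those of Mcm3, Mcm5, Mcm6, Mcm7, Cdt1 and Uhrf1, and the mitosis promoter was that of Cdk1. The CHR letters TTTGAA were found in 1 of 13 replication promoters (7.69%, Mcm2) and in 19 of 25 mitosis promoters (76%), against 20.2% of all promoters. The NF-Y letters CCAAT were in 9 of 13 (69.2%) and 20 of 25, against 41.1%. A match is a run of letters and not a measured binding site. The 160 bases before the start are printed with E2F and CHR letters in capitals on either strand, neighbouring or overlapping matches running together. The start is that of the promoter entry, and for Mcm5 the annotated gene begins earlier, at 75109468. The nearest CHR match lay before the start in 7 of the 19 mitosis promoters, and matches after the start are not printed. In Mcm6 (chr1:128359706-128359865, minus strand) and Mcm5 (chr8:75109349-75109508, plus strand), 2 subunits of the helicase, the capitals are E2F letters. In Mcm2 (chr6:88898781-88898940, minus strand), a further subunit, they are CHR letters. Cdk1 (chr10:69352913-69353072, minus strand), the kinase that starts mitosis, holds both. Cdc20 (chr4:118437344-118437503, minus strand), an activator of the anaphase-promoting complex, and Ube2c (chr2:164769769-164769928, plus strand), its ubiquitin-conjugating enzyme, hold CHR letters.
Mcm6: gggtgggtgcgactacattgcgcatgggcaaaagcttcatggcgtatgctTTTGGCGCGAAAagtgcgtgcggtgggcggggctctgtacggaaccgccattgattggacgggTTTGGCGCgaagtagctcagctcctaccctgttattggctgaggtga
Mcm5: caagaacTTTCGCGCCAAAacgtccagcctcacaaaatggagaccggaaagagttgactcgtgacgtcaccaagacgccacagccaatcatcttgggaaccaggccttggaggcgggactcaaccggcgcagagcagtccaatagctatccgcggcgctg
Mcm2: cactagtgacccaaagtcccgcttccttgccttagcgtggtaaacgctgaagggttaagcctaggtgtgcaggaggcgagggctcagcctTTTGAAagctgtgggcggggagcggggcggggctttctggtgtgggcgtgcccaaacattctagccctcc
Cdk1: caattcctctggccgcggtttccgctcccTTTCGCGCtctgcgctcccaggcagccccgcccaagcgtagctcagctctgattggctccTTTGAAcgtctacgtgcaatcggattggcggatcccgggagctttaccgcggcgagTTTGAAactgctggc
Cdc20: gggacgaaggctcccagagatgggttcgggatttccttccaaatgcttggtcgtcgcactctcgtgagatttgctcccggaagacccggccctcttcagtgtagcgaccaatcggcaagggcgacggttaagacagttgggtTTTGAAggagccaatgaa
Ube2c: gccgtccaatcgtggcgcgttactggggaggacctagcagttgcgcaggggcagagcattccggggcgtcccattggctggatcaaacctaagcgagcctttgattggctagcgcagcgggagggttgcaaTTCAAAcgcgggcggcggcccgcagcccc

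The libraries held 13273435 to 181405413 reads (median 71867026) from 21 to 160 cells each, and no cell name or cell profile occurred more than once among the 7897 cells. Knocked-out genes were lower but not absent: Acss2 was at 9.76 to 21.7 CPM in KO libraries against 18 to 48.1 in WT, Ep300 at 11.9 to 20.4 against 24.2 to 37.2, and Stat3 at 49.4 to 73.7 against 65.9 to 90.2, all stages and diets pooled. Within each stage and diet every KO library lay below its WT libraries, except for Stat3 at G0, where a KO library at 66.1 CPM lay above a WT library at 65.9. CPM is the usual count-per-million unit, here on library sizes scaled by TMM. Sums of a library cannot tell fewer dividing cells from less RNA per dividing cell. The p-values measure the spread between the replicates, and every pregnancy stage shares the same 2 G0 libraries as control.

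The members spanned a wide range of levels. Per kilobase of gene length and over the 35 pregnancy libraries, Pcna, the sliding clamp of DNA polymerase, had the highest level, with a median of 18.3 CPM per kb (10.0 to 37.1). E2f1, a transcription factor of S-phase entry, followed at 7.56 (4.66 to 11.3). Racgap1, a subunit of the centralspindlin complex of cytokinesis, came next at 3.61 CPM per kb, then the helicase subunit Mcm7 at 3.06 and the large ribonucleotide reductase subunit Rrm1 at 2.44. Cdc6, which loads the helicase, and the kinetochore motor Cenpe were lowest, at 0.113 and 0.0539. The ranges of neighbours in this order overlapped, and the mitosis genes spread furthest between libraries: Ccnb2, a mitotic cyclin, ranged from 0.0166 to 12 CPM per kb.

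Most cells held few mitosis transcripts, some held part of the list, and a small number held nearly all of it. A read of at least 10 of the 30 mitosis genes was found in 237 of 7897 cells (3.0%, exact Clopper-Pearson 95% interval 2.64 to 3.4%), spread over 67 of the 100 libraries. Among them 1.66% of all cells held at least 15, 90 cells at least 25 and 41 all 30 genes, while 854 cells held none. Reads carry no count of molecules here, so such intervals cover counting error only. Asking for at least 5 reads in each gene left 130 cells with 10 mitosis genes. Thinning each cell to 300000 reads left 1.89% of the 7740 cells deep enough.

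Cells rich in mitosis genes were also rich in replication genes. The median cell with 0 to 4 mitosis genes held 4 replication genes, and the medians were 5 with 5 to 9 mitosis genes, 7 with 10 to 14, 11 with 15 to 19, and 15 with 20 to 24. All 15 replication genes were read in 91 cells. The lists were not interchangeable: 36 cells in 25 libraries held at least 12 replication genes and at most 4 mitosis genes, and 17 cells held at least 20 mitosis and at most 7 replication genes, while 73 cells were high in both. Cells with at least 10 mitosis genes had a median of 1139623 reads and 8220 genes, against 996022 and 7318 in the other cells, and their insulin genes took 52.4% of reads against 57.7%. Their β-cell markers summed to over 500 CPM in 237 of 237 cells. Markers of endothelial, immune and stromal cells passed that level in 0 of the 237, acinar markers in 1, ductal markers in 22, delta markers in 23 and PP markers in 37. Of the other 7660 cells 0, 52, 0, 9, 338, 536 and 948 passed it for the same 7 lists. Alpha markers passed it in 212 of the 237 and 7108 of the others. The summed hepatocyte list had 716 CPM over the pooled reads of the 237 and 813 CPM over those of the others. The share of each of these in the counts was not tested.

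**Figure D1:**
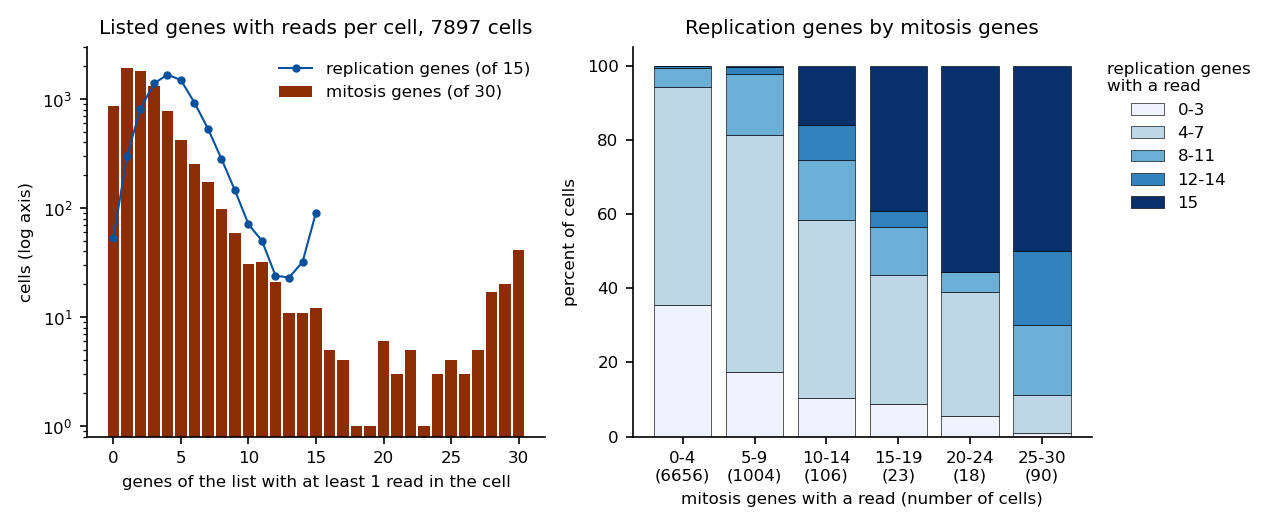
Left: number of cells (log axis) by how many listed genes have a read, for mitosis and for replication genes; right: share of cells by number of replication genes within classes of cells by mitosis genes. Most of the 7897 cells hold few mitosis genes, and the median number of replication genes is 4 with 0 to 4 mitosis genes and 15 with 20 to 24.

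The mitosis genes were concentrated in these few cells, and replication genes less so. The 237 cells held a median of 86.5% of the reads of a mitosis gene, from 22.9% for Racgap1 and 24.8% for the kinesin Kif20a to 96.9% for the spindle checkpoint kinase Bub1. They held a median of 32.9% of the reads of a replication gene. E2f1 was lowest, Pcna had 23.8%, and Cdc6 (69.2%) and Uhrf1 (85.8%), which guides maintenance methylation to newly copied DNA, were highest. Pcna was read in 82.3% of the 6656 cells with at most 4 mitosis genes, E2f1 in 66.9%, Mcm7 in 45.6% and Uhrf1 in 2.57%. Counting the other 29 mitosis genes, Racgap1 had a read in 54.7% of cells with at most 4, the kinase Aurka in 23.4%, Mki67, the Ki-67 antigen of cycling cells, in 7.93% and Bub1 in 0.825%. Racgap1, Kif20a and Aurka were the mitosis genes with the lowest shares of reads in the 237 cells, 22.9%, 24.8% and 37% of their reads. Between cells with at most 4 and at least 15 other mitosis genes, the mean level of Bub1 differed 2140-fold, that of Uhrf1 333-fold, that of Racgap1 15.7-fold and that of E2f1 4.49-fold. The medians were 413-fold over mitosis and 22.5-fold over replication genes. These are descriptions, since mitosis genes define the classes of cells.

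**Figure D2:**
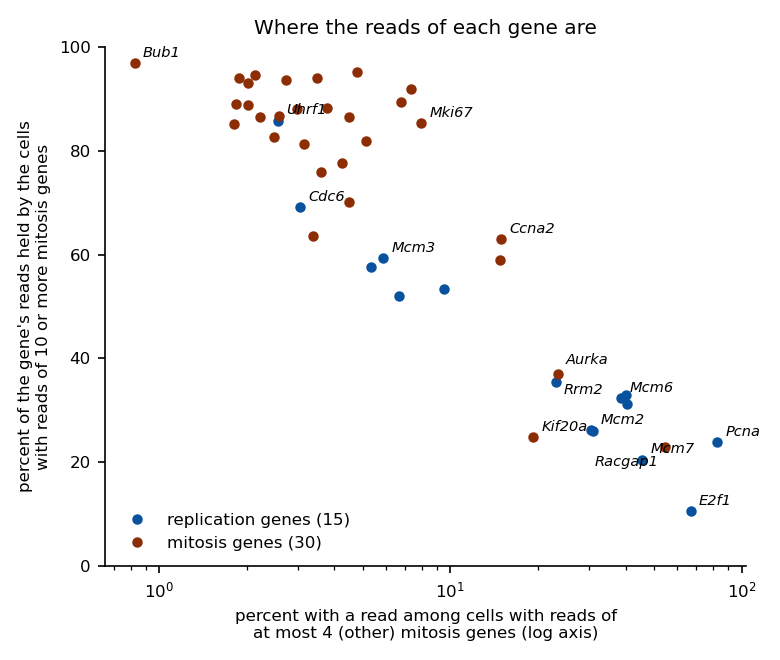
Each point is a member: the share of cells with a read among cells with at most 4 other mitosis genes (x, log axis, percent) against the share of its reads in cells with at least 10 mitosis genes (y, percent). Racgap1 at 54.7% and 22.9% and Pcna at 82.3% and 23.8% lie at the lower right, and Bub1 at 0.825% and 96.9% at the upper left.

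A single cell could therefore set the mitosis level of a library. Over the 100 libraries the top cell held a median of 31.1% of all mitosis reads (3.86 to 93%), and between 2.53% and 59.2% of all replication reads. The highest value belonged to G0 replicate 2, a library of 35 cells, where 1 cell with all 30 mitosis genes and 8 replication genes held 93% of mitosis and 6.64% of replication reads. The summed mitosis level was 24.2 CPM in G0 replicate 1 and 312 in replicate 2. Without cells of at least 10 mitosis genes the same libraries had 24.2 and 22.5 CPM. The summed replication level was 84.8 and 69.4 CPM, and 84.8 and 66.7 without those cells. Every comparison of a pregnancy stage with G0 uses these libraries.

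Each day of gestation was set against G0 to follow the cell cycle genes as β cells adapt to pregnancy. Mcm2 was called higher on every day sampled from G6.5 to G18.5, and mitosis genes were not called on any day. Of the 15 replication genes edgeR's quasi-likelihood test called 1 higher at G6.5, G8.5, G10.5 and G18.5 (Mcm2 each time), 6 at G12.5, 5 at G14.5 and 6 at G16.5, and none at G3.5 or G5.5. None was called lower. Of all 15373 genes tested, 1.22% were called higher at G6.5, 3.69% at G8.5, 1.9% at G10.5, 3.28% at G12.5, 5.96% at G14.5, 4.48% at G16.5 and 3.27% at G18.5, and 0.423% and 0.982% on the earliest days, G3.5 and G5.5. There 5 and 2 replication genes had an unadjusted p under 0.05, all higher, where 11.8% of all genes had one at G3.5, and DESeq2 called 2 and 1. The median log2 fold change of the 15 genes was 0.46 at G3.5, 0.50 at G5.5, 1.22 at G6.5, 1.14 at G8.5, 1.01 at G10.5, 1.67 at G12.5, 1.44 at G14.5, 1.76 at G16.5 and 0.80 at G18.5, while that of all genes lay between 0.00 and 0.02. At an unadjusted p under 0.05 there were 9 higher at G12.5, 8 at G14.5 and 9 at G16.5, against 17.8%, 23.5% and 20.0% of all genes in either direction. Over all comparisons of 2 groups between 2.67% and 23.5% of all genes had such a p. No such share is given for the tests of a difference between effects.

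Mcm2, a subunit of the helicase that unwinds DNA, had 2.08 and 2.00 CPM in the G0 libraries. It had 4.47 and 12 CPM at G6.5, 9.10 and 10.4 at G8.5, 7.88 and 11.3 at G10.5, 10.2 and 10.1 at G12.5, 12, 7.06 and 10.1 at G14.5, 6.11 and 15.2 at G16.5, and 7.60, 4.39 and 7.18 at G18.5. Every library of these days lay above both G0 libraries, as did those of G3.5 (6.34 and 6.14 CPM), while at G5.5 (5.44 and 1.47 CPM) they overlapped with G0. The log2 fold change over G0 was 2.02 ± 0.48 (SE, adjusted p 0.0244) at G6.5, 2.25 ± 0.46 (adjusted p 0.00144) at G14.5, 2.38 ± 0.49 (adjusted p 0.00213) at G16.5 and 1.64 ± 0.45 (adjusted p 0.0278) at G18.5. At G14.5 it was called in all 5 fits that left out a library (2.07 to 2.44). Mcm2 was read in 22.2% and 17.1% of cells in the G0 libraries and in 43.8%, 38.6% and 29.6% in those of G14.5, so a larger share of cells held a read in each G14.5 library. The call was lost at G6.5 without G0 replicate 1, G0 replicate 2 or G6.5 replicate 2, at G8.5 without G0 replicate 2, at G10.5 without G10.5 replicate 2 or either G0 replicate, and at G18.5 without replicate 1, replicate 3, or either G0 replicate. It was also lost at G12.5 without G0 replicate 2 and at G16.5 without G16.5 replicate 2.

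Of the other helicase genes only Mcm6 was called in gestation. It had 5.51 and 3.62 CPM at G0, 15.1 and 13.2 at G12.5, from 10.3 to 16.8 in the 3 libraries of G14.5 and 10.2 and 17.7 at G16.5, with no overlap. Its log2 fold change was 1.62 ± 0.39 (adjusted p 0.0111) at G12.5, 1.44 ± 0.37 (adjusted p 0.00941) at G14.5 and 1.60 (adjusted p 0.00962) at G16.5. Mcm7 stood at 0.20 at G14.5, which did not pass. The loading factors Cdc6 and Cdt1 had log2 fold changes of 3.21 (adjusted p 0.172) and 2.46 (adjusted p 0.206) at G14.5, neither of which passed; Cdc6 had 0.0952 and 0.208 CPM at G0 and 1.21 and 6.29 at G16.5.

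The clamp gene Pcna and the nucleotide supply genes Rrm2 and Tyms were called higher on some of the same days. Pcna had 27.3 and 15.2 CPM at G0, 41 and 37 at G12.5, 37.2, 35.3 and 48.7 at G14.5 and 29.2 and 56.3 at G16.5. Its log2 fold change was 0.87 ± 0.25 (adjusted p 0.0416), 0.92 ± 0.24 (adjusted p 0.0104) and 1.00 (adjusted p 0.0135) on these days. Rrm2, the regulated subunit of ribonucleotide reductase, had 1.33 and 1.25 CPM at G0 against 8.74 and 5.83 at G12.5, 6.17, 6.90 and 9.85 at G14.5 and 3.49 and 7.77 at G16.5. That was a log2 fold change of 2.49 ± 0.62 (adjusted p 0.0145), 2.56 ± 0.60 (adjusted p 0.00469) and 2.12 (adjusted p 0.0302). Its partner Rrm1 changed by 0.16 at G14.5 and did not pass. Tyms, which makes thymidylate, had 7.49 and 3.42 CPM at G0 and 18.3 and 17 at G12.5 (1.67 ± 0.39, adjusted p 0.00924). It was at 11.3, 11.3 and 10.7 CPM at G14.5 (1.00, adjusted p 0.0751, not called) and at 8.61 and 19.6 at G16.5 (1.34, adjusted p 0.03).

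Uhrf1 was close to absent at G0, and E2f1 was not called on any day. Uhrf1 had 3 reads in the G0 libraries (0.0317 and 0.0416 CPM) and 4.84 and 3.42 CPM at G12.5, 1.30, 1.48 and 4.13 at G14.5 and 1.5 and 5.75 at G16.5. The ratio of its CPM to G0 had a counting interval of 38.6 to 551 at G12.5 (adjusted p 0.0311), was 67.4 (23 to 328, adjusted p 0.0316) at G14.5 and 94.6 (32.3 to 459, adjusted p 0.0276) at G16.5. These intervals treat reads as independent, yet few cells held them. The top cell held 62.9% and 39% of Uhrf1 reads in the G12.5 libraries, and 52%, 57.8% and 62.5% in those of G14.5. In those of G16.5 it held 98.4% and 28.7%. E2f1 had 17.8 ± 1.05 CPM (SD, n = 2) at G0 and 20.7, 23.2 and 14.2 at G14.5, which enclose it, a log2 fold change of 0.12 (adjusted p 0.794). Its libraries lay above both G0 libraries at G12.5 (23 and 21.6 CPM) and at G16.5 (25.6 and 29.8 CPM, 0.64, adjusted p 0.111), without a call.

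The number of replication genes called rested on single libraries. At G12.5 it was 1 without G12.5 replicate 1, 4 without G12.5 replicate 2, 4 without G0 replicate 1 and 0 without G0 replicate 2, against 6. At G14.5 it was 2 without G14.5 replicate 3 or without G0 replicate 2, and 5 without each other library. At G16.5 it was 0 without G16.5 replicate 2, 1 without G0 replicate 2, 5 without G0 replicate 1 and 6 with all. In counts simulated for G14.5 against G0, the test found 6% of genes changed 2-fold, 86% of those changed 4-fold and 100% of those changed 8-fold, over 13281 genes. Of the calls made there, 3.82% were of unchanged genes with edgeR and 12% with DESeq2. Shares of all genes called are those of edgeR throughout, so DESeq2 counts stand without one. Every simulated gene had the same set spread between replicates. These shares therefore do not apply to members that spread more widely, as mitosis genes did at G0.

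**Figure D3:**
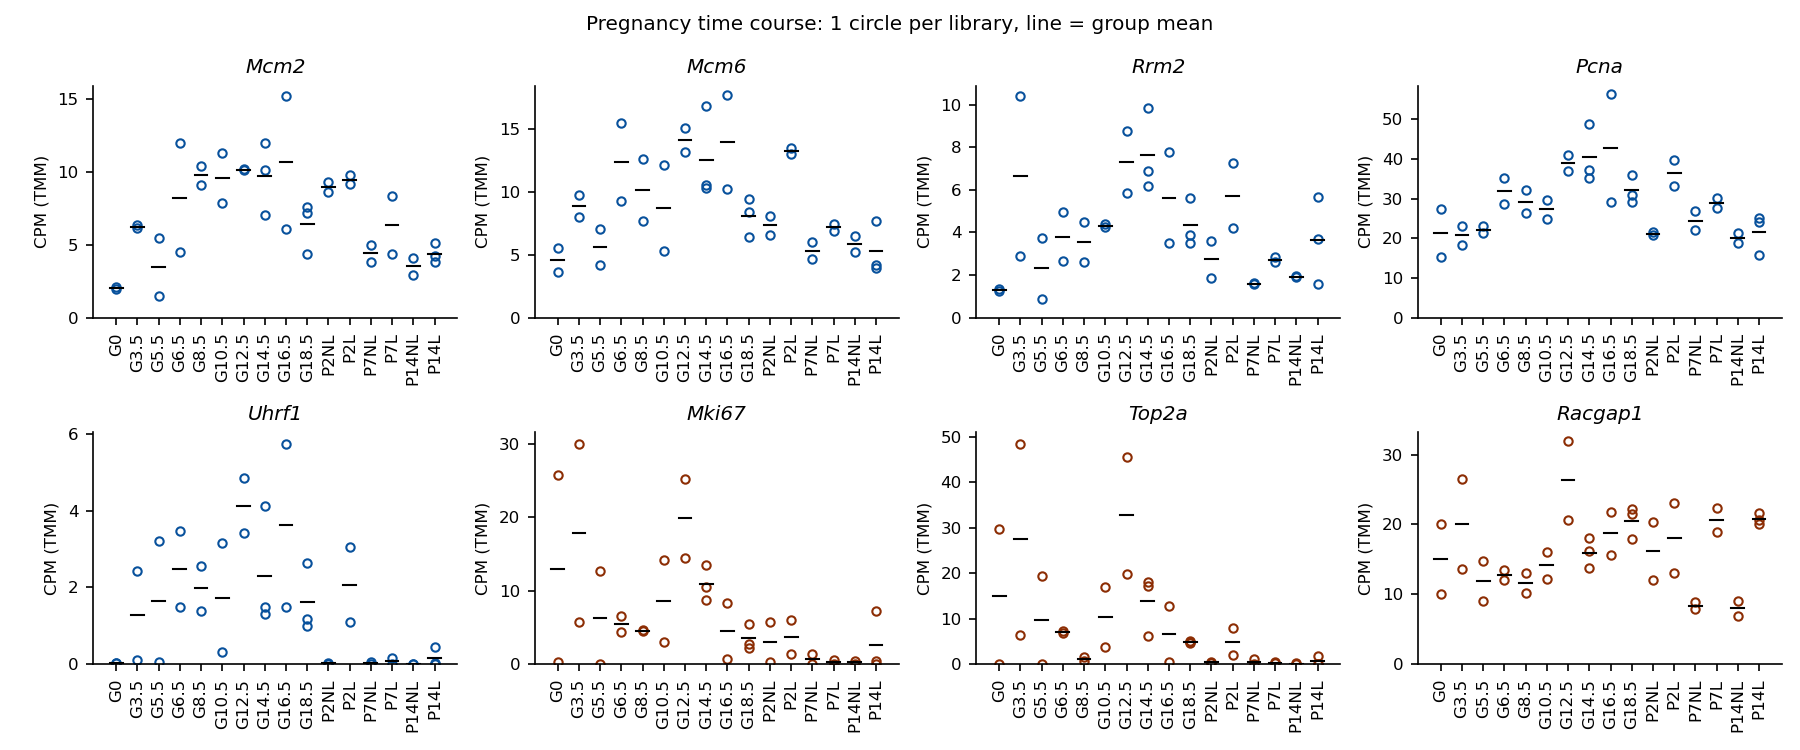
CPM of 8 members in each library (points) through gestation and after delivery, with lines through the group means. Mcm2, with 2.08 and 2.00 CPM at G0, is above that from G6.5 to G18.5 in every library, whereas Mki67 spreads from 0.254 to 25.7 CPM within G0 itself.

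Mitosis genes spread widely between replicates of a group. Mki67 had 0.254 and 25.7 CPM at G0, from 8.79 to 13.5 in the 3 libraries of G14.5, 0.704 and 8.34 at G16.5, and 2.26, 5.48 and 2.73 at G18.5. Top2a, the topoisomerase that untangles sister chromatids, had 0.0635 and 29.7 CPM at G0, 45.6 and 19.9 at G12.5 and 17.2, 18 and 6.18 at G14.5. Ube2c had 0.0793 and 36.5 CPM at G0 and 72.3 and 12 at G12.5. At G14.5 Ube2c had 8.33, 17.3 and 1.53 CPM. The G0 libraries enclosed the G14.5 libraries for all 3 genes, with the high G0 value each time in replicate 2. At G14.5 the log2 fold change was -0.09 for Top2a and -0.61 for Cdk1 (adjusted p 0.774), and neither passed. None of the 30 genes was called on any day of gestation. The share of all genes called lower was 0.156% at G3.5, 0.592% at G5.5, 0.436% at G6.5, 2.09% at G8.5, 0.859% at G10.5, 1.75% at G12.5, 4.15% at G14.5, 2.76% at G16.5 and 1.5% at G18.5. At an unadjusted p under 0.05 there were 8 lower at G8.5, 5 lower at G16.5, 4 lower at G18.5, 1 lower at G5.5 and 1 higher at G12.5, and 0 on the other days. DESeq2 called 1 lower at G8.5 and 2 lower at G16.5. The median log2 fold change was 1.14 at G12.5, where 30 of 30 were positive, -0.34 at G14.5, -1.73 at G8.5, -1.57 at G16.5 and -1.58 at G18.5. Without cells of at least 10 mitosis genes, and so without the 1 cell of G0 replicate 2, these medians were 0.41, 0.85, 0.88, 0.69 and 0.33, again with none called; this setting was chosen after the data had been seen. The negative medians turned positive when the richest cells were left out. Those cells were picked by reads of the same 30 genes, so the shift follows in part from the choice of cells.

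The share of cells with at least 10 mitosis genes gives the same stages without weighting by reads. It was 1 cell at G0 (0.935%, interval 0.0237 to 5.1%), 10 of 247 at G10.5 (4.05%, 1.96 to 7.32%), 14 of 174 at G12.5 (8.05%, 4.47 to 13.1%), 7 of 317 at G14.5 (2.21%, 0.892 to 4.5%), 9 of 220 at G16.5 (4.09%) and 8 of 342 at G18.5 (2.34%). G12.5 was the highest and its libraries had 4.85% and 12.7%, while the libraries of G16.5 had 0.813% and 8.25%. After thinning to 300000 reads the shares were 0.935% at G0, 4.12% at G12.5, 2.23% at G14.5 and 1.40% at G16.5. The median cell had 834591 reads at G0, 1040345 at G12.5 and 1322890 at G16.5, so depth moved with stage. At P7 no cell reached 10 mitosis genes, 0 of 260 with lactation and 0 of 175 without, which allows shares of up to 1.15% and 1.71%, taking 3 cells as what a count of 0 allows here and for the other groups. Cells with at least 8 replication genes made up 5.61% at G0, 6.32% at G12.5, 10.1% at G14.5 and 20.0% at G16.5, and after thinning 1.87%, 4.12%, 7.96% and 8.41%. The libraries of G16.5 had 8.13% and 35.1%, and after thinning 5.88% and 11.6%. With few such cells a group, the intervals of most stages overlapped, and shares over the cells of 2 or 3 libraries were not tested.

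**Figure D4:**
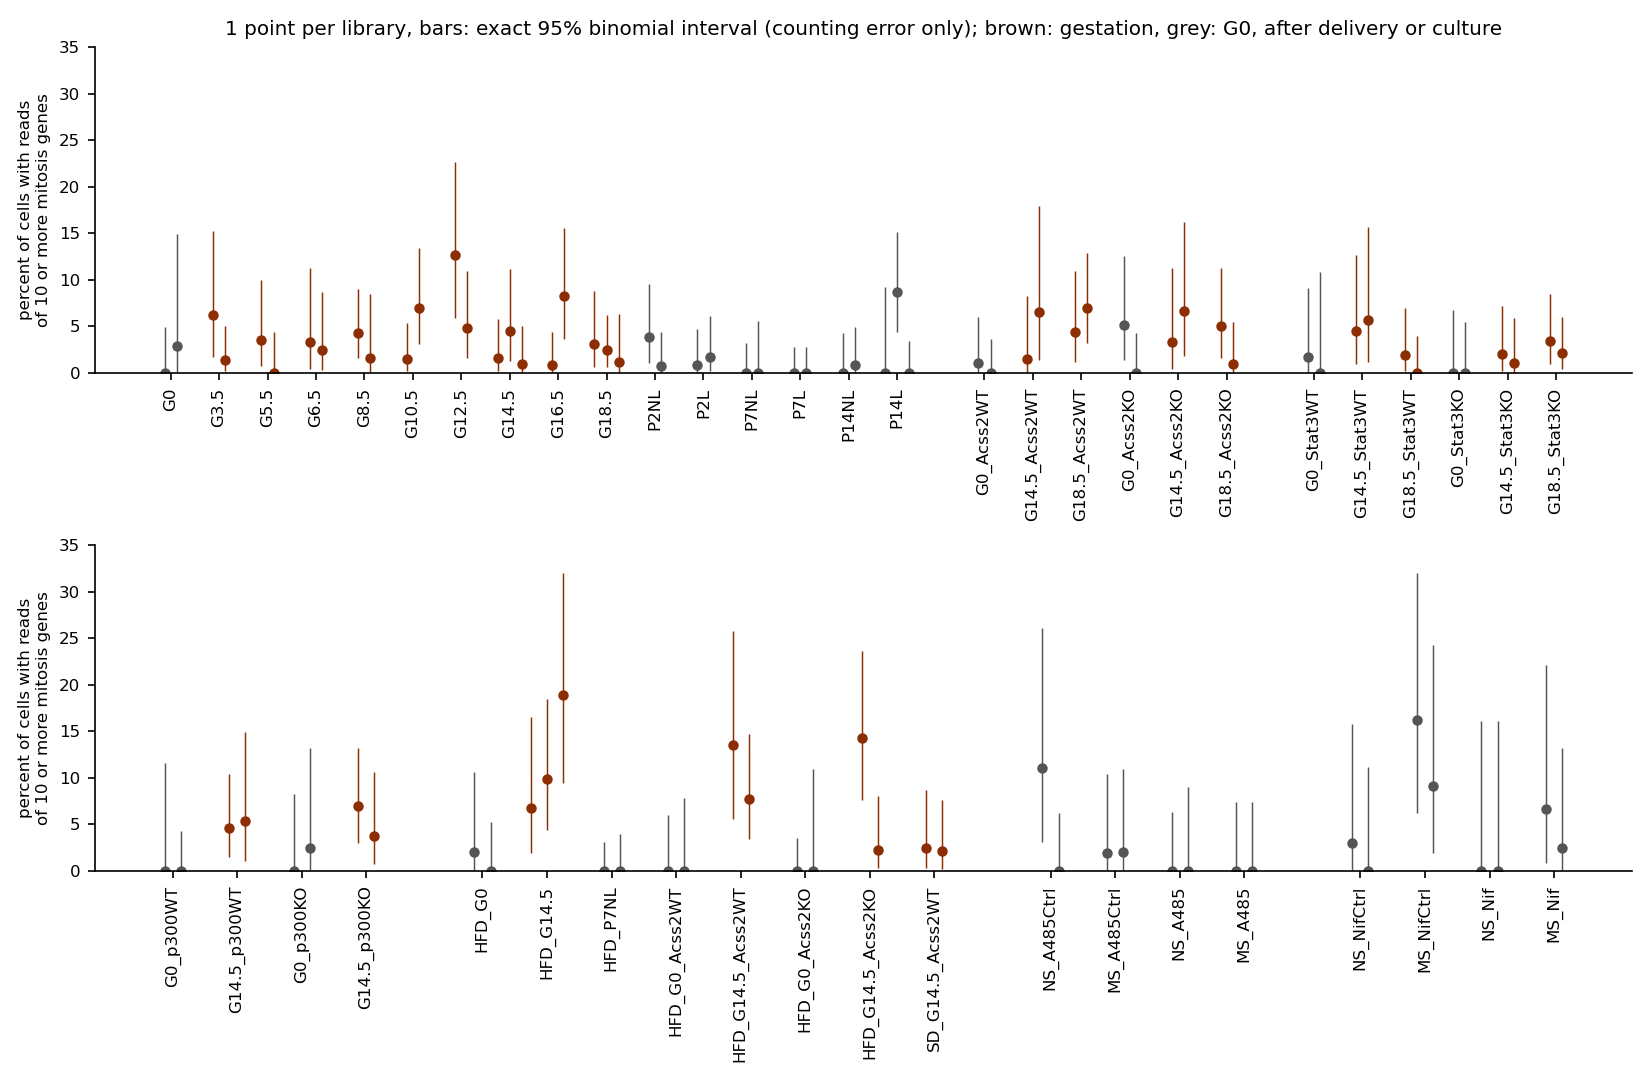
Percent of cells with a read of at least 10 mitosis genes in each library (points), by group, with the exact 95% interval of counting error (bars). The G12.5 libraries lie at 4.85% and 12.7%, the P7 libraries at 0, and the libraries of HFD_G14.5 between 6.78% and 18.9%.

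Part of the replication call at G14.5 did not rest on cells with many mitosis genes. Without cells of at least 5 mitosis genes Mcm2 (log2 fold change 1.89), Rrm2 (1.94) and Mcm6 (1.01) were still called at G14.5, and Pcna (0.39) was not. Without cells of at least 10 mitosis genes the same 3 genes were called, with 1.95, 2.03 and 1.06. At G12.5 none of the 6 was called in either case, with Pcna at -0.07 and 0.03 and Tyms at 0.44 and 0.22. At G5.5 Mcm5 was called lower in both cases, which it was not with all cells. At G16.5 Rrm2 was called in both cases (1.85 and 1.81) and Mcm2 only without cells of at least 10 (1.58). The test of G14.5 against G12.5 itself was not made. Over all comparisons of 2 groups, 10 of 31 calls of replication genes and 4 of the 41 calls of mitosis genes that could be tested again remained without cells of at least 10 mitosis genes. The other 2 calls, Ccnb1 and Cdc20 with A485 in maternal serum, had too few reads left. For mitosis genes the loss of calls is partly built in, since the same genes pick the cells left out.

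After delivery 2 replication genes were called higher than at G0 at P2L and 1 at P2NL. At P2L Mcm2 had 9.76 and 9.14 CPM and Mcm6 13 and 13.5, log2 fold changes over G0 of 2.21 ± 0.48 (adjusted p 0.00775) and 1.52 ± 0.39 (adjusted p 0.0252). At P2NL Mcm2 had 9.32 and 8.64 CPM (2.14 ± 0.48, adjusted p 0.027), the only one called. Of all genes 1.96% were called higher and 0.65% lower at P2L, and 0.481% and 0.0911% at P2NL. The Mcm2 call at P2L was lost without P2L replicate 2 or either G0 replicate, and those of Mcm6 at P2L and Mcm2 at P2NL without any 1 of their 4 libraries. The median of the 15 genes was 1.52 at P2L and -0.20 at P2NL. Set against each other, P2L and P2NL had no replication gene called, with 6 at an unadjusted p under 0.05, all higher in P2L. Of all genes 4.91% had such a p, 0.111% were called higher and 0.013% lower, and DESeq2 called 2 of the 15. The median difference was 0.85.

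At P7L 2 mitosis genes were called lower than at G0, where 0.807% of all genes were lower and 2.54% higher. Cdk1 had 0.344 and 0.394 CPM against 0.492 and 20.4 at G0 (-4.80 ± 1.31, adjusted p 0.0346), and Birc5, the survivin subunit of the chromosomal passenger complex, had 0 and 0.157 CPM against 0.175 and 18.6 (-6.84 ± 1.95, adjusted p 0.0451). The P7L libraries were close to G0 replicate 1 and far below replicate 2. Without G0 replicate 2 the log2 fold changes were -0.41 and -1.12, and without cells of at least 10 mitosis genes 0.29 and -1.13, none called. The call was also lost without P7L replicate 1 or P7L replicate 2, and 5 genes were called without G0 replicate 1. The medians of the 30 genes were -4.49 at P7L, -5.07 at P7NL and -4.69 at P14NL, with 20, 21 and 18 genes lower at an unadjusted p under 0.05, none called at P7NL or P14NL, and 8 and 6 called lower there by DESeq2. Of all genes 0.0911% were called lower and 0.371% higher at P7NL, and 0.13% and 0.15% at P14NL.

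Racgap1 was higher with lactation. It had 22.3 and 18.9 CPM at P7L against 8.88 and 7.86 at P7NL, and 20.7, 20.1 and 21.7 at P14L against 6.87 and 9.07 at P14NL, with no overlap at either day. The log2 fold change was 1.30 ± 0.33 (adjusted p 0.0467) at P7 and 1.39 ± 0.31 (adjusted p 0.0166) at P14, where 0.696% and 0.611% of all genes were called higher and 0.143% and 0.111% lower. It was still called without cells of at least 10 mitosis genes (1.30 and 1.25) and without cells of at least 5 (1.28 and 1.47). At P2 its libraries overlapped, with 13.1 and 23 CPM at P2L and 20.4 and 12 at P2NL. The P7 call was lost without each of its 4 libraries, and the P14 call without P14NL replicate 1, P14NL replicate 2 or P14L replicate 3. At P14L 11 of 270 cells held at least 10 mitosis genes, all in replicate 2 (8.73% of its cells), and 9 mitosis genes were lower than at G0 when that library was left out, against 0 called with it.

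Other genes of the cycle, from lists of 48 further replication genes, 69 further mitosis genes and 32 regulators of G1, had few calls. At G14.5 1 of 48 was higher and 1 lower, 0 of 69 higher and 1 lower, and 3 of 32 higher and 1 lower, where 5.96% of all genes were higher and 4.15% lower. The replication-linked ATPase gene Atad2 rose from 2.86 ± 0.919 CPM (SD, n = 2) to 10.1 ± 3.02 (SD, n = 3), by 1.81 on the log2 scale (adjusted p 0.00601). Rpa1, the large subunit of the single-strand binding protein, fell by 0.58 (adjusted p 0.0189), and the securin gene Pttg1 fell by 0.94 (adjusted p 0.000951). Among the G1 regulators Myc rose from 1.79 ± 0.125 to 12 ± 1.11 CPM (2.75, adjusted p 0.00338), the cyclin E gene Ccne1 rose by 1.76 (adjusted p 0.0197) and Rb1, the retinoblastoma repressor of E2F, rose by 0.87 (adjusted p 0.0313). At G12.5 3 of 48 were higher and 0 lower, among them Atad2 (1.93), Rpa2 (1.38) and Rfc2 (0.71). Of all genes 3.28% were called higher and 1.75% lower at G12.5. On that day 3 of 69 were higher, the tubulins Tubb5 (1.11), Tubb4b (1.09) and Tuba1b (1.08), with 1 lower. Of the regulators 4 of 32 were higher and 1 lower, with Myc at 3.34, Ccne1 at 2.03 and the CDK inhibitor Cdkn1b at -0.92. At G16.5, where 4.48% of all genes were higher and 2.76% lower, 3 of 48 were higher and 1 lower. They included the remodeller Hells at 4.62, Atad2 at 1.96 and the kinase activator Dbf4 at -2.11. Of the 69, 2 were higher and 2 lower, with Tubb4b at 0.90, Pttg1 at -0.82 and Aspm, a spindle pole gene, without a read against 4.19 ± 5.92 CPM (SD, n = 2) at G0. That SD exceeds the mean, so the Aspm call rests on very unequal G0 libraries. Of the 32, 3 were higher and 1 lower, with Myc at 3.22, Ccne1 at 2.66 and the CDK inhibitor Cdkn1c at -5.37.

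In 10 comparisons of G14.5 with its own G0, over WT and KO mice and both diets, 14 of 15 replication genes had a positive log2 fold change every time, against 4 of 30 mitosis genes. E2f1 was the exception, with -0.25 in Stat3 KO and -0.31 in p300 WT. Of the mitosis genes 15 of 30 were positive in at least 9 of the 10. The time course is among the 10, and a single cell held 93% of the mitosis reads of its G0 replicate 2. Pcna, at 21.2 ± 8.54 CPM at G0 and 40.4 ± 7.23 at G14.5 of the time course, stood at 0.30 to 1.36 in the other 9 comparisons and was called in none of them. Mcm2 stood at 0.19 to 1.54 in these 9, also without a call; its G0 level of 2.04 ± 0.0563 CPM in the time course was the lowest of the 10 G0 groups, the others lying between 2.99 and 9.53. Rrm2 ranged from 0.22 to 3.07. Mki67 ranged from -0.23 in the time course to 7.70 on high-fat diet with Acss2 KO, where the G0 libraries were at 0.0891 and 0 CPM.

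The Acss2 knockout was studied to ask whether the gene is needed for adaptation. Neither the direct comparisons of KO with WT nor the tests of the difference between their pregnancy effects called a member, where 0.00711% (G0), 0.0213% (G14.5) and 0.149% (G18.5) of all genes were called in either direction between KO and WT, and 0.0213% at G14.5 and 0.0142% at G18.5 for the difference in effect. At an unadjusted p under 0.05 there were 18 mitosis genes higher in KO than WT at G0 (median 4.28), and 16 with a smaller pregnancy effect in KO at G18.5 (median -4.47). DESeq2 called 0 in both. The 16 stand without the share of all genes with such a p. At G14.5 E2f1 was called higher than at G0 in KO mice, with 34 and 39.6 CPM against 18.4 and 14.1 (1.18 ± 0.19, adjusted p 0.00194), where 2.86% of all genes were called higher. WT mice had 24.7 and 23.2 CPM against 14.8 and 17.6 (0.56, adjusted p 0.154), and the difference of 0.62 between the effects did not pass (adjusted p 0.803). The E2f1 call was lost without G0_Acss2KO replicate 2 and kept without cells of at least 5 mitosis genes (0.92). When cells of at least 10 mitosis genes were left out, 3 replication genes were called, E2f1 (1.01), Cdt1 and Pcna. No member was called at G14.5 in WT mice, where 2.01% of genes were; 4 replication and 11 mitosis genes had an unadjusted p under 0.05, and DESeq2 called 1 mitosis gene.

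At G18.5 mitosis genes were higher than at G0 in Acss2 WT mice. Mki67 had 11.1 and 15.7 CPM against 0.186 and 0.259 (5.91 ± 1.52, adjusted p 0.0273), and Cdc20 had 9.45 and 1.66 against 0.0428 and 0.129 (5.99, adjusted p 0.0215). Ccnb2 was called with 9.64 and 3.05 CPM against 0.0999 and 0.201 (5.38, adjusted p 0.0365). Bub1 and Hmmr, a hyaluronan receptor of the spindle, had no read at G0. Bub1 was at least 95.8-fold higher (adjusted p 0.0261), with 3 reads over the G0 group as the floor, and Hmmr had 3.55 and 2.71 CPM (adjusted p 0.0198). These were 5 of 30 genes, with a median of 4.09, and 4.1% of all genes called higher and 2.78% lower. The count of 5 was 3 without G18.5_Acss2WT replicate 1, 1 without its replicate 2, 0 without either G0_Acss2WT replicate and 0 without cells of at least 10 mitosis genes. In KO mice none was called, where 1.7% of all genes were higher and 0.768% lower, nor had any an unadjusted p under 0.05; DESeq2 called 0 and the median was 0.09. G0_Acss2KO replicate 1 had 14.6 CPM of Mki67 and replicate 2 had 0.218, and the G18.5 KO libraries had 17 and 1.04. The difference between genotypes was -5.62 for Mki67 (adjusted p 0.462), -5.84 for Cdc20 (adjusted p 0.423) and -10.74 for Hmmr (adjusted p 0.381), none of which passed. The cells with at least 10 mitosis genes were 13 of 218 at G18.5 in WT (5.96%, 3.21 to 9.98%), 6 of 200 in KO (3.0%), and 1 of 190 and 4 of 163 at G0.

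In the Stat3 and p300 tables Racgap1 was called higher at G14.5 in both genotypes. At G14.5 it had 18.4 and 26.7 CPM against 10.3 and 8.34 at G0 in Stat3 WT (1.27 ± 0.29, adjusted p 0.0365) and 21.5 and 17.1 against 6.86 and 4.03 in Stat3 KO (1.82 ± 0.30, adjusted p 0.00269). At G18.5 it had 20.2 and 19.1 CPM in KO (1.85 ± 0.30, adjusted p 0.00253), and 15.2 and 16.8 in Stat3 WT, where it was not called. In p300 WT it had 33.8 and 17.8 CPM against 7.60 and 7.27 (1.80 ± 0.35, adjusted p 0.0207), and in p300 KO 30.8 and 17.4 against 8.67 and 7.41 (1.58 ± 0.35, adjusted p 0.0277). No G14.5 library overlapped with its G0 group, in contrast to the time course, where G0 had 10.0 and 20.1 CPM. The effect did not differ between genotypes by test: the differences were 0.55 (adjusted p 0.767) and 1.07 (adjusted p 0.621) for Stat3 and -0.21 (adjusted p 0.929) for p300. Among all genes 1.26% and 1.36% were called higher at G14.5 in Stat3 WT and KO, 1.06% at G18.5 in Stat3 KO, and 1.25% and 2.14% in p300 WT and KO. The Stat3 KO calls of Racgap1 held in each of the 4 fits that left out a library, at both days, and without cells of at least 10 mitosis genes (1.77 and 1.46). That of Stat3 WT was lost without each library but G14.5_Stat3WT replicate 1, and those of p300 WT and KO without each library but replicate 2 of their G14.5 group. Without cells of at least 10 mitosis genes those of Stat3 WT (1.08) and of p300 WT and KO (1.30 and 1.32) were not called.

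At G18.5 in Stat3 KO 3 other mitosis genes were called higher. Ube2c had 24.2 and 3.59 CPM against 0.0715 and 0.145 at G0 (7.03 ± 1.52, adjusted p 0.0257). Ccnb1, cyclin B1, had 10.4 and 0.724 CPM and 2 reads at G0, a ratio of 264 (73.1 to 2180, adjusted p 0.0257), and Cdc20 had 9.93 and 0.445 CPM and a ratio of 247 (68.2 to 2040, adjusted p 0.0281). Replicate 1 was the higher library for all 3, and 1 cell held 98% of its reads of Ube2c, 98.2% of those of Ccnb1 and 96.6% of those of Cdc20. The count of 4 fell to 1, Racgap1, without G18.5_Stat3KO replicate 1, without either G0_Stat3KO replicate, and without cells of at least 10 mitosis genes. For Ube2c the difference from WT was 9.16 (unadjusted p 0.000198, adjusted p 0.156), the smallest adjusted p of any member in the 8 tests of a difference between effects. In that test 17 of 29 mitosis genes had an unadjusted p under 0.05, all higher, and DESeq2 called 6. The share of all genes with such a p is not given there, so the 17 cannot be set against it. Set against WT directly, Stat3 KO at G14.5 had 16 mitosis genes lower at an unadjusted p under 0.05 and a median of -2.98, none called by edgeR (0.0098% of genes) and 7 by DESeq2. In p300 KO at G14.5 Cdt1 was called, with 9.57 and 4.68 CPM against 0.234 and 0.744 (3.86 ± 0.86, adjusted p 0.0292); it was lost without any 1 of the 4 libraries. In p300 WT no replication gene was called, but 9 had an unadjusted p under 0.05 and DESeq2 called 4. Mki67 had 12.4 and 10.3 CPM against 0.596 and 0.244 there (4.85, adjusted p 0.0913), without overlap.

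On high-fat diet G14.5 was compared with G0 on the same diet. In mice without an Acss2 label Rrm2 was called, with 6.89, 6.06 and 10.3 CPM against 1.16 and 0.683 (3.07 ± 0.68, adjusted p 0.0211), 1 of 15 genes where 1.22% of all genes were called higher. The call was lost without HFD_G0 replicate 1, HFD_G0 replicate 2 or HFD_G14.5 replicate 3. Of the 15, 9 had an unadjusted p under 0.05, as 15.4% of all genes did, and the median was 1.53. Mki67 had 6.80, 6.34 and 11.9 CPM against 4.19 and 0.163 and was not called. Before thinning, the HFD_G14.5 group had the most cells of any pregnancy group with at least 10 mitosis genes, 22 of 193 (11.4%, 7.28 to 16.7%). Its 3 libraries had 6.78%, 9.88% and 18.9%. At HFD_G0 it was 1 cell (0.847%), and at HFD_P7NL 0 of 207, which allows up to 1.45%. After thinning HFD_G14.5 had 5.95%, below the 6.51% of HFD_G14.5_Acss2KO. No member was called at HFD_P7NL, where no gene was, and 14 mitosis genes were lower at an unadjusted p under 0.05, which 5.38% of all genes had; DESeq2 called 0.

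In Acss2 WT mice on high-fat diet 8 of 30 mitosis genes were higher at G14.5 than at G0, where 1.38% of all genes were. Mki67 had up to 12.9 CPM against 0.0593 and 0.116 (7.22 ± 1.33, adjusted p 0.00647). Ube2c had 7.75 and 16 CPM against 0.0593 and 0.0464 (7.74, adjusted p 0.0354), and Cenpa, the histone of centromeres, 1.10 and 8.02 against 0 and 0.0928 (6.76, adjusted p 0.0467). Racgap1 had 17.1 and 23.8 CPM against 4.52 and 6.61 (1.88 ± 0.42, adjusted p 0.023). Ccnb2 had 3.34 and 8.71 CPM against 0 and 0.0232 at G0 (adjusted p 0.031), and Cdc20 3.08 and 13 against 0 and 0.0464 (adjusted p 0.0296). The centromere gene Cenpf and the spindle assembly gene Tpx2 were the others, with ratios to G0 of 296 (81.9 to 2450) and 349 (96.3 to 2880). In all 28 of 30 genes had an unadjusted p under 0.05 and the median was 5.87.

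In Acss2 KO mice on high-fat diet 11 mitosis and 2 replication genes were higher, where 2.31% of all genes were. Mki67 had 25.2 and 2.77 CPM against 0.0891 and 0 (7.70, adjusted p 0.00451), and Cdk1 had 17 and 0.931 against 0.0223 and 0.228 (6.74, adjusted p 0.0289). Kif23, the motor subunit that pairs with Racgap1, had 1 read at G0 and a ratio of 419 (75 to 16600, adjusted p 0.00754), and Racgap1 rose by 1.63 (adjusted p 0.0342). Cenpf rose by 7.44, Tpx2 was at least 214-fold higher, and Hmmr had 7.01 and 1.45 CPM against 0 in both G0 libraries. Birc5, Cenpa, Cdc20 and the kinetochore gene Ndc80 had 1 to 3 reads at G0. The counting interval of their ratio was 86.1 to 2580 for Birc5, 44.4 to 635 for Cenpa, 75 to 16600 for Cdc20 and 49.9 to 1500 for Ndc80. Of the replication genes Mcm3, without a read at G0, had 5.36 and 1.68 CPM at G14.5 (adjusted p 0.0268), and Uhrf1 had a ratio of 453 (81 to 17900, adjusted p 0.0311). Replicate 1 was the higher of the KO libraries for each gene given with CPM. Acinar markers summed to 384 CPM in that library and 7.36 in replicate 2, against a median of 2.19 over this table. Their part in the calls was not tested. The difference between KO and WT effects called no member. The counts fell to between 0 and 2 in WT, and to between 0 and 10 for mitosis and 0 and 2 for replication genes in KO, when 1 library was left out, and to 0 without cells of at least 10 mitosis genes. Those cells were 15 in WT (9.68%) and 14 of 171 in KO (8.19%, 14.3% and 2.3% in its libraries) at G14.5, and 0 at G0 in both, which allows up to 2.86% in WT and 2.26% in KO. After thinning they were 3.90% and 6.51%. Between diets, in Acss2 WT mice at G14.5, no member was called, where 0.0638% of genes were higher on high-fat diet; 7 of 30 mitosis genes had an unadjusted p under 0.05, as 12.3% of all genes did, DESeq2 called 0 and the median was 1.51.

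In cultured islets A485 was compared with its vehicle in each serum. With normal serum Mcm7 had 6.40 and 5.83 CPM with A485 against 22.4 and 12.3 without (-1.49 ± 0.35, adjusted p 0.0481), Ube2c had 0 and 0.0445 against 17.4 and 2.27, and Hmmr 0.0663 and 0 against 22.1 and 0.717. These 3 were called lower, where 2.0% of all genes were. The Mcm7 call was lost on library sizes without Ins1 and Ins2 (-1.47, adjusted p 0.0524). β-cell markers summed to 461000 to 505000 CPM with A485 against 872000 to 893000 without, and delta markers to at most 140 against 691 to 3330; their part in the result was not tested. For Ube2c, with 1 read under A485, the ratio was 0.00289 (0.000073 to 0.0162, adjusted p 0.0224), and for Hmmr, with 2 reads, 0.00556 (0.000669 to 0.0203, adjusted p 0.0283). With maternal serum 4 mitosis genes were lower, where 2.6% of all genes were. Hmmr had 0.0378 and 0.0423 CPM against 7.55 and 2.98 (-6.92 ± 1.5, adjusted p 0.0289), Ccnb1 had no read with A485 against 8.14 and 0.983 CPM (adjusted p 0.0326), Tpx2 had none against 3.58 and 3.16 (adjusted p 0.04), and Cdc20 had 1 read and a ratio of 0.0014 (adjusted p 0.0236). In the vehicle libraries of maternal serum the top cell held 99.3% and 94.6% of Ccnb1 reads and 98.5% and 79.4% of Tpx2 reads. It held 97.9% and 95.3% for Cdc20 and 98.9% and 97.6% for Hmmr. In those of normal serum it held 47.7% and 84.2% for Ube2c, 34.2% and 61.1% for Hmmr, and 35.6% and 21.8% for Mcm7. The mitosis medians were -3.24 and -3.79, with 30 of 30 negative in both sera, and the replication medians -1.49 and -0.94. Mki67 had 0.530 and 0.0445 CPM against 39.4 and 0.677 in normal serum and 0.283 and 0.106 in maternal serum, where the lower vehicle library had 3.78, and did not pass (adjusted p 0.0631 and 0.0769). Replicate 1 of the vehicle was the high library for Mki67, Pcna and Mcm7 in both sera.

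No cell had at least 10 mitosis genes with A485, 0 of 95 and 0 of 96, which allows up to 3.16% and 3.12%, against 4 of 93 and 2 of 100 with vehicle, so these shares were not distinguishable at this number of cells. Without cells of at least 10 mitosis genes none of the 7 genes was called; Ccnb1 and Cdc20 then had too few reads to be tested in maternal serum. With normal serum, 8 mitosis genes were called without NS_A485Ctrl replicate 2 and 0 without each other library, and with maternal serum 0 to 4. Of the fits that left out a library, Mcm7 was called only in the one without NS_A485Ctrl replicate 2. Serum itself called no member in vehicle (0.516% of genes higher), with 0 replication and 1 mitosis gene at an unadjusted p under 0.05 and 0 by DESeq2, and the effect of A485 did not differ between sera by test.

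Nifuroxazide was compared in the same way in a separate table. With maternal serum and vehicle Ube2c was higher than with normal serum, at 29.9 and 1.52 CPM against 0.179 and 0.452 (5.65 ± 1.20, adjusted p 0.0425), where 0.593% of genes were. Mki67 had 11.2 and 7.92 CPM against 0.209 and 0.904 (4.11, adjusted p 0.121) and Top2a 13.9 and 13 against 0.119 and 0.986 (4.63, adjusted p 0.102), without overlap and without a call. The replication median was 1.59, with 9 of 15 at an unadjusted p under 0.05. With nifuroxazide in maternal serum Mcm7 had 8.15 and 7.38 CPM against 23.3 and 32.4 (-1.84 ± 0.32, adjusted p 0.0141), the only member called, where 0.356% of genes were lower. Another 11 replication genes had an unadjusted p under 0.05, as 9.91% of all genes did, and the median was -1.65. Mki67 had 0.714 and 0.0958 CPM (-4.56, adjusted p 0.0978); of 28 mitosis genes tested 14 had an unadjusted p under 0.05, the median was -3.30, none was called by edgeR and 9 by DESeq2. In normal serum no member was called with nifuroxazide, 2 replication and 5 mitosis genes being lower at an unadjusted p under 0.05 and 2 and 1 by DESeq2, and the difference between sera passed for none, with Mcm7 at -1.35 (adjusted p 0.579). Cells with at least 10 mitosis genes were 9 of 70 (12.9%, 6.05 to 23%) with maternal serum, 3 of 70 with nifuroxazide added and 1 of 64 with normal serum, and 4.35%, 0% and 0% after thinning. Of the fits that left out a library, the Ube2c call held only in the one without MS_NifCtrl replicate 2 and the Mcm7 call only in the one without MS_NifCtrl replicate 1, and both were lost without cells of at least 10 mitosis genes. In normal serum both drugs left Pcna uncalled, at -0.90 with A485 (adjusted p 0.199) and 0.41 with nifuroxazide (adjusted p 0.541); doses and vehicles differ, so the drugs were not compared.

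Over the 59 comparisons, 51 of 2 groups and 8 of a difference between effects, Mcm2 and Racgap1 were called most often, higher in 9 each. Mcm6, Rrm2 and Uhrf1 were called in 4, all higher, Cdc20 in 4 higher and 1 lower, Pcna in 3, and Mcm7 in 2, both lower. Of the 45 members, 20 were called in none. The Mcm2 calls all came from the time course and share its 2 G0 libraries, and of the Racgap1 calls 7 came from the knockout and diet tables and 2 from lactation.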

How the data were processed

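Single β cells were read by Smart-seq3xpress, and the authors deposited raw read counts per gene and cell in 7 tables, analysed separately. Trimmomatic 0.39, featureCounts 2.0.1 and the mouse build GRCm38/mm10 are named per the submitters' processing notes without an aligner or an annotation of genes. Normalized values that the authors deposited beside the counts, in a unit the labels do not define, served only in an alternative with limma 3.58.1.

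Counts were summed over the cells of each replicate, and libraries were scaled by TMM, filtered by filterByExpr and tested with edgeR 4.0.16 (glmQLFit and glmQLFTest, R 4.3.3) across all genes of a table, with Benjamini-Hochberg adjustment and a threshold of 0.05. Effects were compared by interaction terms. Ratios for genes with 1 to 3 control reads carry exact counting intervals, and a group without reads was set to 3 reads. These intervals do not cover the spread between cells or libraries. Cells were described by the number of members with a read, without a test and without a doublet caller. G0, G14.5 and the other names are those of the labels; for 4 groups the last replicate is not called biological there.

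The members and lists were chosen with earlier results of these data known. The members called are named in each comparison, with Pcna, Mki67, Top2a and Cdk1 among those not called, and up to 3 called genes with the largest change of each other pathway list; Ube2c and others in the account of single libraries were named after their values were seen. Fits that left out a library reused the dispersion trend and the genes of the full fit. Alternatives were DESeq2 1.42.0, limma, no filter on low counts, library sizes without insulin, a replicate block, thinned cells, and sums without cells rich in mitosis genes or in other hormones; leaving out cells with at least 10 mitosis genes was chosen after seeing the data. The fit was tested on simulated data. Spc25 was left out of the lists because its reads may be shared with a neighbouring gene, and the 10x libraries were not analysed here.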

Additional observations from a re-analysis of the deposited data

How the results depend on the processing

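Counts of called members depended on the test, the filter and single libraries. A stage named alone was compared with the G0 of its own group, and each count of called replication or mitosis genes is given first with edgeR as reported and then under the alternative. Mitosis counts without cells of at least 5 mitosis genes were the same as without cells of at least 10, except that Prc1 was called lower at G16.5. Shares of all genes called are given only for edgeR as reported. How far calls over all genes rose or fell under an alternative is not given. The counts below therefore describe the members alone and cannot be set against all genes. Beyond what the settings themselves remove, the cause of each move was not tested.

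Under DESeq2 Wald test, the count of replication genes went from 0 to 1 for G5.5, P7L, P14L against P14NL, G18.5_Acss2WT, G14.5_Stat3WT, G0_p300KO against G0_p300WT, HFD_G14.5_Acss2WT, MS_A485 against NS_A485, difference in effect Nif serum, from 0 to 2 for G3.5, P2L against P2NL, MS_A485 against MS_A485Ctrl, NS_Nif against NS_NifCtrl, from 0 to 4 for G14.5_p300WT. For the comparisons that follow, replication counts went from 0 to 6 for MS_NifCtrl against NS_NifCtrl, from 1 to 2 for G10.5, G14.5_p300KO, from 1 to 3 for G6.5, G18.5, HFD_G14.5, NS_A485 against NS_A485Ctrl. Further replication counts went from 1 to 4 for G8.5, G14.5_Acss2KO, from 1 to 7 for MS_Nif against MS_NifCtrl, from 2 to 5 for P2L. The other mitosis counts went from 0 to 1 for G8.5, G14.5_Acss2WT, G18.5_Stat3KO against G18.5_Stat3WT, HFD_G14.5, difference in effect Acss2 HFD_G14.5, HFD_G0_Acss2KO against HFD_G0_Acss2WT, NS_Nif against NS_NifCtrl, from 0 to 2 for G16.5, G0_Stat3KO against G0_Stat3WT, from 0 to 4 for difference in effect Nif serum. Remaining mitosis counts went from 0 to 6 for P14NL, difference in effect Stat3 G18.5, G0_p300KO against G0_p300WT, from 0 to 7 for G14.5_Stat3KO against G14.5_Stat3WT, from 0 to 8 for P7NL. Additional mitosis counts went from 0 to 9 for MS_Nif against MS_NifCtrl, from 1 to 2 for P7L against P7NL, G14.5_p300KO, from 1 to 3 for G14.5_Stat3WT. Next, mitosis counts went from 1 to 4 for P14L against P14NL, from 1 to 9 for MS_NifCtrl against NS_NifCtrl, from 1 to 12 for G14.5_p300WT. More mitosis counts went from 2 to 8 for NS_A485 against NS_A485Ctrl, from 2 to 9 for P7L, from 4 to 9 for G18.5_Stat3KO. Again, mitosis counts went from 4 to 11 for MS_A485 against MS_A485Ctrl, from 5 to 14 for G18.5_Acss2WT, from 8 to 21 for HFD_G14.5_Acss2WT. Also, mitosis counts went from 11 to 18 for HFD_G14.5_Acss2KO.

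In the setting no low-count filter, the count of replication genes went from 0 to 1 for G5.5, G18.5_Acss2KO, G14.5_Acss2KO against G14.5_Acss2WT, G14.5_Stat3KO, difference in effect Acss2 HFD_G14.5, HFD_G0_Acss2KO against HFD_G0_Acss2WT, HFD_G14.5_Acss2WT against SD_G14.5_Acss2WT, MS_Nif against NS_Nif, difference in effect Nif serum, from 0 to 2 for P7L, P14L, P14L against P14NL, difference in effect p300 G14.5, MS_A485 against NS_A485, NS_Nif against NS_NifCtrl, from 0 to 3 for G3.5, P2L against P2NL, G14.5_Stat3WT. Likewise, replication counts went from 0 to 4 for G18.5_Acss2WT, G0_p300KO against G0_p300WT, MS_A485 against MS_A485Ctrl, from 0 to 5 for G14.5_Acss2WT, HFD_G14.5_Acss2WT, MS_NifCtrl against NS_NifCtrl, from 0 to 10 for G14.5_p300WT. Elsewhere, replication counts went from 1 to 3 for G6.5, from 1 to 4 for G10.5, from 1 to 5 for G8.5, G18.5, G14.5_p300KO. Then replication counts went from 1 to 6 for NS_A485 against NS_A485Ctrl, MS_Nif against MS_NifCtrl, from 1 to 9 for HFD_G14.5, from 1 to 12 for G14.5_Acss2KO. For the comparisons that follow, replication numbers moved from 2 to 7 for P2L, from 2 to 10 for HFD_G14.5_Acss2KO, from 5 to 9 for G14.5. Further replication numbers moved from 6 to 12 for G16.5. The other mitosis numbers moved from 0 to 1 for G18.5_Acss2KO against G18.5_Acss2WT, HFD_G0_Acss2KO against HFD_G0_Acss2WT, MS_A485Ctrl against NS_A485Ctrl, difference in effect A485 serum, NS_Nif against NS_NifCtrl, from 0 to 2 for difference in effect Stat3 G14.5, G18.5_Stat3KO against G18.5_Stat3WT, MS_A485 against NS_A485, from 0 to 3 for G18.5_Stat3WT, HFD_G14.5. Remaining mitosis numbers moved from 0 to 4 for G6.5, G12.5, G14.5, from 0 to 5 for G0_Stat3KO against G0_Stat3WT, difference in effect Nif serum, from 0 to 6 for P2L against P2NL, difference in effect Acss2 G14.5. Additional mitosis numbers moved from 0 to 7 for G5.5, from 0 to 8 for HFD_G14.5_Acss2WT against SD_G14.5_Acss2WT, from 0 to 9 for G14.5_Stat3KO against G14.5_Stat3WT, difference in effect p300 G14.5. Next, mitosis numbers moved from 0 to 10 for P2NL, G14.5_Acss2KO against G14.5_Acss2WT, MS_Nif against MS_NifCtrl, from 0 to 12 for G16.5, P14L, difference in effect Stat3 G18.5, HFD_P7NL against HFD_G0, from 0 to 13 for P2L. More mitosis numbers moved from 0 to 14 for G8.5, G18.5, from 0 to 15 for G0_p300KO against G0_p300WT, from 0 to 17 for G14.5_Acss2WT. Again, mitosis numbers moved from 0 to 18 for difference in effect Acss2 G18.5, from 0 to 20 for G0_Acss2KO against G0_Acss2WT, from 0 to 21 for P14NL. Also, mitosis numbers moved from 0 to 22 for P7NL, from 1 to 5 for G14.5_Stat3WT, from 1 to 6 for G14.5_Stat3KO. Likewise, mitosis numbers moved from 1 to 7 for P7L against P7NL, from 1 to 9 for MS_NifCtrl against NS_NifCtrl, from 1 to 10 for G14.5_p300KO. Elsewhere, mitosis numbers moved from 1 to 18 for P14L against P14NL, from 1 to 23 for G14.5_p300WT, from 2 to 14 for NS_A485 against NS_A485Ctrl. Then mitosis numbers moved from 2 to 22 for P7L, from 4 to 14 for G18.5_Stat3KO, from 4 to 15 for MS_A485 against MS_A485Ctrl. For the comparisons that follow, mitosis calls passed from 5 to 26 for G18.5_Acss2WT, from 8 to 27 for HFD_G14.5_Acss2WT, from 11 to 23 for HFD_G14.5_Acss2KO.

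In the setting without cells with mitosis gene reads, the count of replication genes went from 0 to 1 for G5.5, P7L, P14L, from 1 to 0 for G6.5, G18.5, G14.5_p300KO, HFD_G14.5, NS_A485 against NS_A485Ctrl, MS_Nif against MS_NifCtrl, from 2 to 0 for P2L, HFD_G14.5_Acss2KO. Further replication calls passed from 5 to 3 for G14.5, from 6 to 0 for G12.5, from 6 to 1 for G16.5.

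In the setting without cells with reads of 10 mitosis genes, the count of replication genes went from 0 to 1 for G5.5, P7L, from 1 to 0 for G18.5, G14.5_p300KO, HFD_G14.5, NS_A485 against NS_A485Ctrl, MS_Nif against MS_NifCtrl, from 1 to 2 for G6.5. The other replication calls passed from 1 to 3 for G14.5_Acss2KO, from 2 to 0 for P2L, HFD_G14.5_Acss2KO, from 5 to 3 for G14.5. Remaining replication calls passed from 6 to 0 for G12.5, from 6 to 2 for G16.5. Additional mitosis calls passed from 1 to 0 for G14.5_Stat3WT, G14.5_p300WT, G14.5_p300KO, MS_NifCtrl against NS_NifCtrl, from 2 to 0 for P7L, NS_A485 against NS_A485Ctrl, from 4 to 0 for MS_A485 against MS_A485Ctrl. Next, mitosis calls passed from 4 to 1 for G18.5_Stat3KO, from 5 to 0 for G18.5_Acss2WT, from 8 to 0 for HFD_G14.5_Acss2WT. More mitosis calls passed from 11 to 0 for HFD_G14.5_Acss2KO.

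Under cells thinned, the count of replication genes went from 0 to 1 for G0_p300KO against G0_p300WT, from 0 to 3 for G14.5_p300WT, from 1 to 0 for G6.5. Again, replication calls passed from 1 to 2 for G8.5, G14.5_p300KO, from 1 to 3 for G14.5_Acss2KO, from 2 to 1 for P2L. Also, mitosis calls passed from 0 to 1 for G16.5, P7NL, NS_Nif against NS_NifCtrl, from 0 to 2 for P14NL, MS_Nif against MS_NifCtrl, from 1 to 0 for P7L against P7NL. Likewise, mitosis calls passed from 1 to 2 for G14.5_Stat3WT, from 1 to 5 for G14.5_p300WT, from 2 to 5 for P7L. Elsewhere, mitosis calls passed from 5 to 10 for G18.5_Acss2WT.

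Under limma on normalized values, pseudocount 1, the count of replication genes went from 0 to 1 for MS_A485 against MS_A485Ctrl, from 1 to 0 for G6.5, G8.5, G18.5, NS_A485 against NS_A485Ctrl, MS_Nif against MS_NifCtrl, from 2 to 0 for P2L, HFD_G14.5_Acss2KO. Then replication calls passed from 5 to 3 for G14.5, from 6 to 0 for G12.5, from 6 to 3 for G16.5. For the comparisons that follow, mitosis totals shifted from 1 to 0 for MS_NifCtrl against NS_NifCtrl, from 2 to 0 for P7L, NS_A485 against NS_A485Ctrl, from 4 to 0 for MS_A485 against MS_A485Ctrl. Further mitosis totals shifted from 5 to 0 for G18.5_Acss2WT, from 8 to 3 for HFD_G14.5_Acss2WT, from 11 to 3 for HFD_G14.5_Acss2KO.

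Under limma on normalized values, pseudocount 0.1, the count of replication genes went from 0 to 1 for HFD_G14.5_Acss2WT, MS_A485 against MS_A485Ctrl, from 1 to 0 for G6.5, G8.5, G18.5, P2NL, HFD_G14.5, NS_A485 against NS_A485Ctrl, MS_Nif against MS_NifCtrl, from 1 to 2 for G14.5_Acss2KO. The other replication totals shifted from 2 to 0 for P2L, from 5 to 3 for G14.5, from 6 to 0 for G12.5. Remaining replication totals shifted from 6 to 2 for G16.5. Additional mitosis totals shifted from 0 to 1 for G18.5, G14.5_Acss2WT, from 1 to 0 for P7L against P7NL, MS_NifCtrl against NS_NifCtrl, from 2 to 0 for P7L, NS_A485 against NS_A485Ctrl. Next, mitosis totals shifted from 4 to 0 for MS_A485 against MS_A485Ctrl, from 5 to 0 for G18.5_Acss2WT, from 8 to 4 for HFD_G14.5_Acss2WT. More mitosis totals shifted from 11 to 3 for HFD_G14.5_Acss2KO.

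Under replicate block, the count of replication genes went from 0 to 1 for HFD_G14.5_Acss2WT, from 1 to 0 for G18.5, HFD_G14.5, from 1 to 2 for G14.5_Acss2KO, NS_A485 against NS_A485Ctrl. Again, mitosis totals shifted from 1 to 0 for P7L against P7NL, MS_NifCtrl against NS_NifCtrl, from 1 to 3 for G14.5_Stat3WT, from 2 to 5 for NS_A485 against NS_A485Ctrl. Also, mitosis totals shifted from 4 to 7 for MS_A485 against MS_A485Ctrl.

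In the setting without cells with other hormones, the count of replication genes went from 1 to 2 for G14.5_Acss2KO. Likewise, mitosis totals shifted from 1 to 0 for P7L against P7NL.

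Under library sizes without Ins1 and Ins2, the count of replication genes went from 1 to 0 for NS_A485 against NS_A485Ctrl.

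When each library was left out in turn, the count of replication genes ranged from 0 to 1 (all libraries 0) for G3.5, P7L, P14L, G14.5_Acss2WT, G14.5_p300WT, G0_p300KO against G0_p300WT, MS_A485 against MS_A485Ctrl, from 0 to 2 (all libraries 0) for G14.5_Stat3WT, from 0 to 0 (all libraries 1) for P2NL, from 0 to 1 (all libraries 1) for G6.5, G8.5, G10.5, G14.5_Acss2KO, G14.5_p300KO, HFD_G14.5, NS_A485 against NS_A485Ctrl, MS_Nif against MS_NifCtrl, from 0 to 2 (all libraries 1) for G18.5, from 0 to 2 (all libraries 2) for P2L, HFD_G14.5_Acss2KO, from 2 to 5 (all libraries 5) for G14.5, from 0 to 4 (all libraries 6) for G12.5, from 0 to 6 (all libraries 6) for G16.5. When each library was left out in turn, the count of mitosis genes ranged from 0 to 1 (all libraries 0) for P7NL, G14.5_Acss2WT, difference in effect Stat3 G18.5, MS_Nif against MS_NifCtrl, from 0 to 2 (all libraries 0) for G8.5, G16.5, HFD_G14.5, from 0 to 4 (all libraries 0) for P14NL, from 0 to 9 (all libraries 0) for P14L, from 0 to 0 (all libraries 1) for P7L against P7NL, from 0 to 1 (all libraries 1) for P14L against P14NL, G14.5_p300WT, MS_NifCtrl against NS_NifCtrl, from 0 to 2 (all libraries 1) for G14.5_Stat3WT, from 0 to 3 (all libraries 1) for G14.5_p300KO, from 0 to 10 (all libraries 11) for HFD_G14.5_Acss2KO, from 0 to 5 (all libraries 2) for P7L, from 0 to 8 (all libraries 2) for NS_A485 against NS_A485Ctrl, from 0 to 4 (all libraries 4) for MS_A485 against MS_A485Ctrl, from 1 to 4 (all libraries 4) for G18.5_Stat3KO, from 0 to 3 (all libraries 5) for G18.5_Acss2WT, from 0 to 2 (all libraries 8) for HFD_G14.5_Acss2WT.

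Some called results changed sign when cells were left out. Pcna, G12.5 against G0 had -0.07 without cells with mitosis gene reads, where it had 0.87. Cdk1, P7L against G0 had 0.29 without cells with reads of 10 mitosis genes, where it had -4.8. When cells of at least 5 mitosis genes were left out, Cdk1 at P7L was at 0.72, Ccnb2 at G18.5_Acss2WT at -1.10 (5.38 with all cells), Ccnb1 at G18.5_Stat3KO at -0.13 (7.91) and Ube2c at HFD_G14.5_Acss2WT at -0.22 (7.74), each over its G0.

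The labels do not say whether a replicate number marks a shared mouse, litter or day. In the time course same-numbered libraries of different groups had correlations of -0.167 to 0.105 (median 0.00216). In the A485 table they had -0.0139 to 0.143 (median 0.0177). Such correlations cannot settle whether samples are paired. The replicate block is therefore only an alternative, and the counts it moved are those given under the block. The limma settings were not run for the Stat3 and p300 tables. In simulated counts of G14.5 against G0, 6% of genes changed 2-fold were found. Depth, spread and number of replicates were not varied there, so their parts cannot be told apart.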
